A study of Mus musculus with 2 samples.

Results

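The cells described here are endothelial cells of the embryonic mouse heart that carried vascular genes and no transcript of 2 defining endocardial genes, Npr3 and Nfatc1. They are called vascular-gated cells, and were chosen by their own counts of the genes named next, so the levels of those genes are a description. A cell was taken from the barcodes of the authors' embedding of either library when it passed 5 conditions on its unique molecular identifiers (UMIs, each counted as 1 captured transcript). It had a UMI of at least 4 of the 6 pan-endothelial genes Pecam1, Cdh5, Tie1, Emcn, Egfl7 and Esam. The sarcomere genes Tnnt2, Myh6, Myh7, Actc1 and Myl7 made up under 2% of its UMIs, and Klf2 lay under 1000 CPM (counts-per-million, a count scaled by the total UMIs of the cell or group). It had 0 UMIs of Npr3 and Nfatc1, and at least 1 UMI of Cldn5, Sox17 or Fabp4. The rule found 117 cells among the 11640 barcodes of the embedding, 10 of 5408 in the control library and 107 of 6232 in the knockout library.

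Whole hearts were taken at E11.5, in mid-gestation, held on ice before dissociation, and profiled by droplet single-cell RNA-seq that reads the 3′ end of transcripts. The control library was Hand2fx/+ R26RmTmG/wt and had no Cre. The other library, H2CKO, was Nfatc1Cre/wt Hand2fx/fx R26RmTmG/wt, so the transcription factor gene Hand2 was deleted where the Nfatc1 promoter had driven Cre, and the controls carried 1 floxed Hand2 allele. Both carried the mTmG reporter, which makes membrane Tomato before and membrane GFP after recombination by Cre. Nfatc1-driven Cre is a tool for the endocardium and the cells that descend from it. There was 1 library per genotype, and the number, sex and pooling of the embryos are not in the labels. Genotype and library therefore cannot be told apart, no difference here has a replicate check, and every interval is a 95% interval of counting error only.

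Endothelial cells of the heart come as endocardium, which lines the chambers and the valve-forming cushions, and as vascular endothelium, which lines the coronary and other vessels. Endocardial cells are known for Npr3, a natriuretic peptide clearance receptor, and Nfatc1, a transcription factor of valve development. Vascular endothelium is known for Cldn5, a tight junction protein, for Sox17, a transcription factor of arterial endothelium, and for Fabp4, a fatty acid binding protein. At this age the first coronary plexus forms, in part from the sinus venosus and in part from endocardium. Klf2 is a transcription factor induced by blood flow.

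The gate narrowed quickly. At least 4 pan-endothelial genes were present in 372 control and 669 H2CKO cells, and 343 and 623 of these were under the sarcomere limit. Low Klf2 was met by 167 and 439 cells, and 0 UMIs of Npr3 and Nfatc1 left 14 and 126. Vascular-gated cells were 2.92% of control endothelial cells (exact binomial interval 1.41 to 5.30) and 17.2% of H2CKO endothelial cells (14.3 to 20.4). These shares describe the rule as much as the hearts, because its genes themselves differed in level between the libraries. A UMI of Cldn5, Sox17 or Fabp4 was present in 28.1% of control and 71.6% of H2CKO cells that had Npr3 or Nfatc1 and low Klf2. Of those same cells, 5.88% in the control and 36.7% in H2CKO had just 1 UMI of Npr3 and Nfatc1 together. Cells that missed the gate by exactly that 1 UMI numbered 5 in the control and 80 in H2CKO, so the cell numbers are given as a description.

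At the edges of the rule, the member highest in Klf2 had 571.5 CPM in the control and 936.2 in H2CKO, and the nearest cell above the limit had 1018.9 and 1130. The highest sarcomere share of a member was 1.44% in the control and 1.66% in H2CKO, and the lowest share among the excluded was 2.52% and 2.17%. The vascular genes were carried in different combinations. In the control, 3 cells had Sox17 alone, 1 had Cldn5 alone, 2 had Cldn5 with Sox17, 1 had Cldn5 with Fabp4 and 3 had all 3 genes. In H2CKO, 36 cells had Cldn5 alone and 20 had Sox17 alone. Another 31 had Cldn5 with Sox17, 3 had Cldn5 with Fabp4, 1 had Sox17 with Fabp4, and 16 had all 3 genes. Fabp4 was thus the rarest of the 3, with UMIs in 4 control and 20 H2CKO members.

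The 10 control members held 193741 UMIs (8029 to 43742 per cell, median 17018) and the 107 H2CKO members held 1214072 (5176 to 42424 per cell, median 10139). The deepest control cell held 22.6% of the control members' UMIs, and the deepest H2CKO cell held 3.49% of theirs. A gene with 0 UMIs could have been present at up to 15.5 CPM, over the summed UMIs of the group, in the control members and up to 2.47 CPM in the H2CKO members, taking 3 UMIs as the limit that a count of 0 allows. The libraries shared 57 barcodes in all and 15 in the embedding, and no barcode was a member in both. Erythroid-gated cells, those with over 20% haemoglobin UMIs, served as the level of free RNA in the droplets.

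A pair of further endothelial groups of the same libraries are used for comparison. Cells with Npr3 or Nfatc1 and low Klf2, called Npr3/Nfatc1 cells, numbered 153 in the control and 313 in H2CKO. Cells with Klf2 at or above the limit, called Klf2-high cells, numbered 176 and 184. On the embedding, 52% of the nearest 15 neighbours of the control members and 52.8% of those of the H2CKO members were Npr3/Nfatc1 cells. Other members made up 11.3% and 28.6%, and Klf2-high cells 18% and 10.6%. Of all embedding cells, members made up 0.185% and 1.72%, Npr3/Nfatc1 cells 2.83% and 5.02%, and Klf2-high cells 3.25% and 2.95%. Members were thus also near one another beyond their share. The control members ranked 5, 6, 7 and 9 by depth each had 4 other members among their neighbours. In H2CKO, 13 members had other members as the majority of their neighbours. Most vascular-gated cells lay within the endothelial area. Exceptions were the deepest control cell, with 8 of 15 neighbours outside the endothelial gate, the fourth deepest control cell, with 14 of 15, and the deepest H2CKO cell, with 15 of 15.

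**Figure D1:**
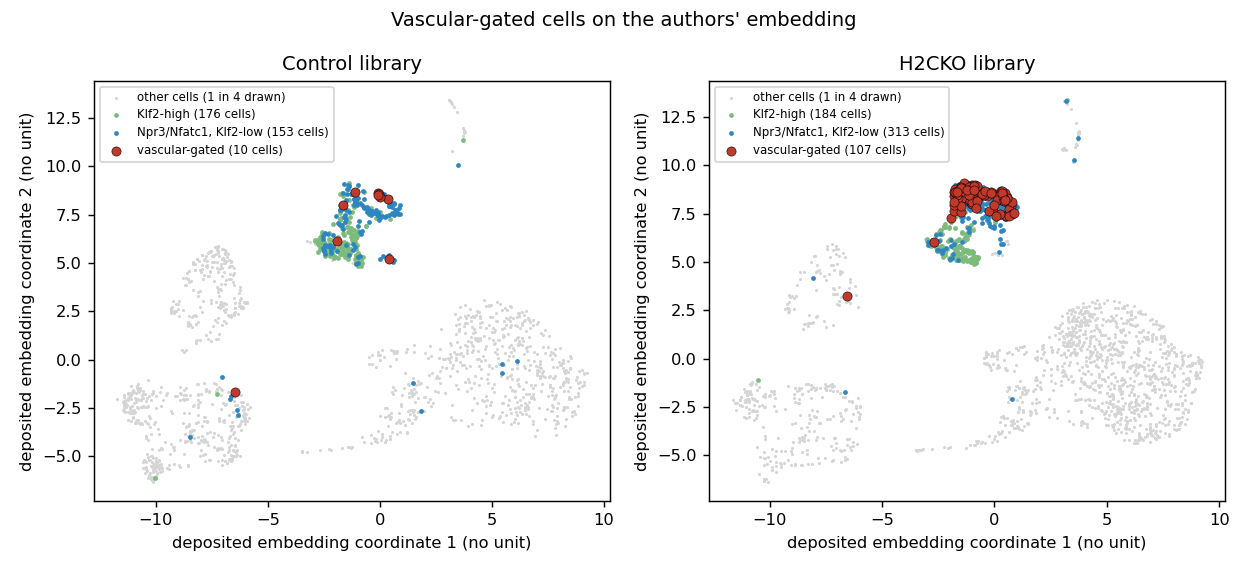
Vascular-gated cells (red), Npr3/Nfatc1 cells (blue) and Klf2-high cells (green) on the 2 coordinates of the authors' embedding, which have no unit, with 1 in 4 of all other cells in grey and 1 panel per library. The 10 control and 107 H2CKO vascular-gated cells mostly lie among the Npr3/Nfatc1 cells, and a few lie far from them.

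The members were not free of endocardial genes beyond the 2 that the rule used. Hapln1, a link protein of the cushion matrix and an endocardial marker, was present in 10 of 10 control members and 86 of 107 H2CKO members. Its level was 790 CPM in the control and 225 CPM in H2CKO, against 850 and 358 CPM in Npr3/Nfatc1 cells. Of the 153 control UMIs, 119 came from 3 cells rich in mesenchyme genes, described below, and the other 7 members stood at 322 CPM (log2 ratio over Npr3/Nfatc1 cells -1.39, against -0.11 with all 10). Summed over 14 endocardial genes without Npr3 and Nfatc1, the members held 1770 CPM in the control and 1162 CPM in H2CKO, and Npr3/Nfatc1 cells held 2935 and 1594 CPM. At 0 among these genes were Gata5, Cytl1, Irx6 and Adgrg6 in the control members, and Irx6 in the H2CKO members. The members thus carried endocardial transcripts, at a lower sum than Npr3/Nfatc1 cells. After thinning to 5000 UMIs per cell, 90% of control and 57.9% of H2CKO members had a Hapln1 UMI, against 6.01% and 2.93% of erythroid-gated cells. The endothelial genes of the label chose the cells and cannot check it. Pecam1, the endothelial adhesion molecule, was at 315 CPM in the control and 194 CPM in H2CKO, and Cdh5, the adherens junction cadherin, at 299 and 297 CPM.

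Hand2, the targeted gene (chr8:57320983-57324633 on the plus strand, GRCm38, protein coding), was at 124 CPM in control members (79.4 to 184) and 14.8 CPM in H2CKO members (8.79 to 23.4). The log2 ratio of H2CKO over control was -2.70, here and throughout on the scale of CPM plus 5. Npr3/Nfatc1 cells fell from 195 to 27.0 CPM (-2.64) and Klf2-high cells from 244 to 10.1 CPM. The members' control level rested on 4 of 10 cells, whereas 139 of 153 control Npr3/Nfatc1 cells had a Hand2 UMI. Those 4 held 3, 7, 8 and 6 UMIs, the first 3 of them being cells rich in mesenchyme genes, described below. In 2 of the 22 settings run the control members held 0 Hand2 UMIs and no direction was shown, as given below. In H2CKO, 9 of 107 members and 77 of 313 Npr3/Nfatc1 cells had one. After thinning to 5000 UMIs per cell, 40% of control members and 5.61% of H2CKO members kept a Hand2 UMI, against 3.60% and 1.70% of erythroid-gated cells. The intervals of the H2CKO shares, 2.09 to 11.8% in members and 1.17 to 2.40% in erythroid-gated cells, overlapped. Transcripts of a deleted allele that keep 3′ sequence would still be counted by this assay.

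GFP separated the H2CKO members into cells with none or a trace and cells with much. No GFP UMI was found in 49 of 107 cells, 7 had 1 UMI, 4 had 2, none had 3 to 5, and 47 had 6 or more (43.9%, 34.3 to 53.9), with a median of 18 and a maximum of 71 among the last. The share with 6 or more was 60.1% in Npr3/Nfatc1 cells (188 of 313) and 76.6% in Klf2-high cells (141 of 184). In cardiomyocyte-gated cells it was 0.397% and in erythroid-gated cells 0.582%. No control member had more than 2. Median depth was 10139 UMIs in the members, 12320 in Npr3/Nfatc1 cells and 12081.5 in Klf2-high cells. The vascular-gated cells held the lowest share of GFP-rich cells of these 3 endothelial groups.

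**Figure D2:**
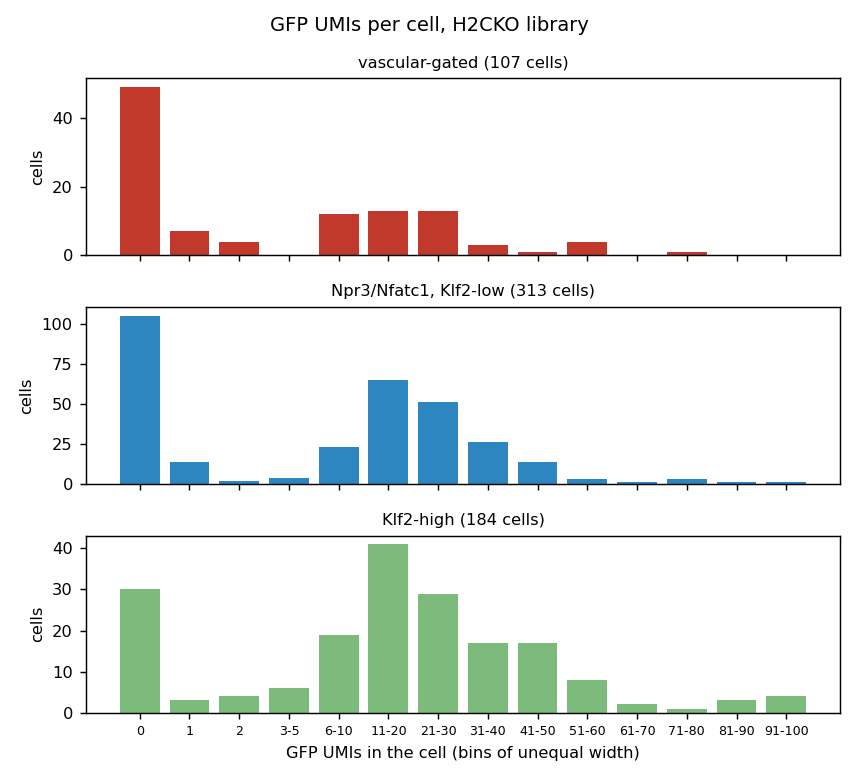
Number of H2CKO cells (vertical axis) by GFP UMIs in the cell (horizontal axis, bins of unequal width) for the 3 endothelial groups. In the vascular-gated cells 49 had 0 UMIs, 47 had 6 or more and the bin from 3 to 5 is empty.

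The 10 control members did not form a uniform group. Numbered by depth, from 1 for the deepest, cells 2, 5, 6, 7 and 9 all had UMIs of both Kcne3, a subunit that modulates potassium channels, and Igfbp3, an insulin-like growth factor binding protein. Kcne3 was counted 10, 21, 8, 9 and 4 times in these cells and Igfbp3 8, 9, 1, 10 and 10 times. All 5 also had Dll4, an arterial and tip cell Notch ligand, at least 2 of the 3 vascular genes, and no Hand2 UMI. The other 5 cells had neither Kcne3, Igfbp3 nor Fabp4. Cells 1, 3 and 4 had Sox17 as their only vascular gene and 3, 7 and 8 Hand2 UMIs. They also carried transcription factors of cushion mesenchyme, with Sox9 at 14, 18 and 19 UMIs and Twist1 at 22, 35 and 14, and the matrix gene Vcan at 66, 46 and 69. Cell 1 also held 211 UMIs of Ttn, the giant sarcomere protein, and 25605 CPM over 12 cardiomyocyte genes. Cell 8 had a single Cldn5 UMI and 6 of Hand2, and cell 10 had Cldn5 and Sox17 without Hand2. The 5 cells with Kcne3 and the 5 without were told apart after their values were seen, so this is a description of 10 cells and no comparison was made between them.

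**Figure D3:**
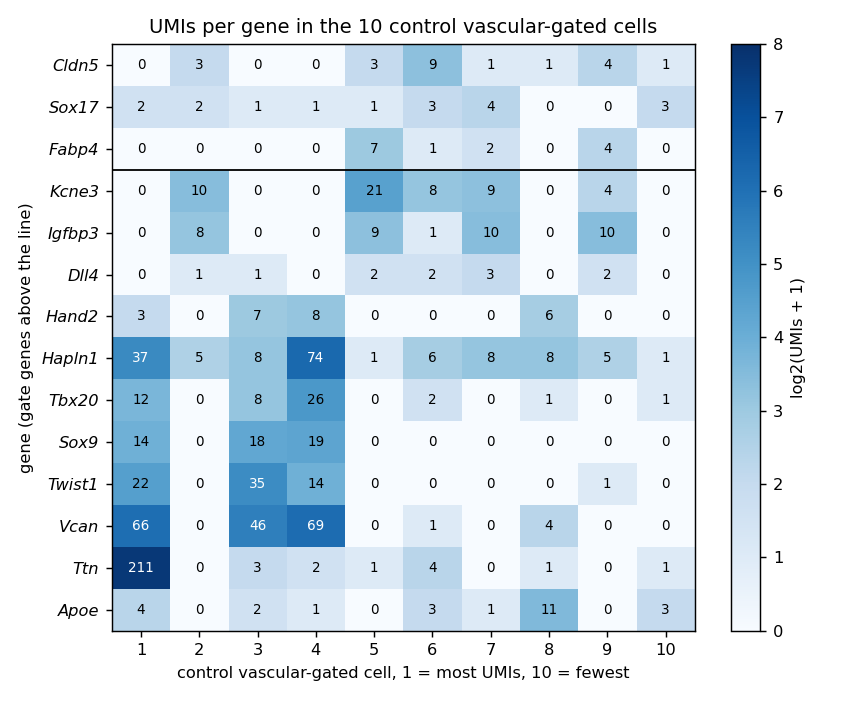
UMIs of 14 genes (rows) in each of the 10 control vascular-gated cells (columns, ordered by depth from 1 for the deepest to 10), with the count printed and the colour giving log2(UMIs + 1). Kcne3 and Igfbp3 are present in cells 2, 5, 6, 7 and 9, and Hand2 in cells 1, 3, 4 and 8.

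Kcne3 and Igfbp3 were higher in the members than in Npr3/Nfatc1 cells in each library over summed UMIs, in H2CKO through 4 cells for Igfbp3. A gene was called when its level differed at least 2-fold and the higher group held at least 20 CPM and 20 UMIs. In the control, 43 genes were higher (0.916%) and 587 lower (12.5%) of 4696, which is 13.4% called, with a median log2 ratio of all genes of -0.26. In H2CKO, 11 were higher (0.19%) and 85 lower (1.47%) of 5780, which is 1.66% called, with a median of -0.05. The same direction held in both libraries for 3 higher and 19 lower genes of 3990 (0.551%), of which 1 and 3 were genes of the rule. The 2 higher genes outside the rule were Kcne3 and Igfbp3. Since the rule itself divides these groups, the counts describe the cells it chose.

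Kcne3 (chr7:100176502-100184869, plus strand, protein coding) stood at 268 CPM in control members (200 to 352) and 121 CPM in H2CKO members (102 to 142). In Npr3/Nfatc1 cells it stood at 1.37 and 15.5 CPM, and in Klf2-high cells at 0.575 and 7.41 CPM. The log2 ratio of members over Npr3/Nfatc1 cells was 5.42 in the control, with an interval of the fold from 78.5 to 626, and 2.62 in H2CKO, from 5.91 to 10.4. The transcript was held by few cells at many copies. It was found in 5 of 10 control members with a median of 9 UMIs in those cells, and in 16 of 107 H2CKO members with a median of 4.5 and a maximum of 30. The 4 highest H2CKO members held 89 of 147 UMIs, and without them the level was 51.4 CPM (log2 ratio 1.46, fold 2.33 to 4.73). After each cell was thinned to 5000 UMIs, 40% of control and 11.2% of H2CKO members had a Kcne3 UMI. The shares were 1.31% and 4.17% in Npr3/Nfatc1 cells and 0% in erythroid-gated cells of either library.

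Igfbp3 (chr11:7206086-7213923, minus strand, protein coding) was at 196 CPM in control members (139 to 269) and 183 CPM in H2CKO members (160 to 209), and at 11 and 70.8 CPM in Npr3/Nfatc1 cells. The log2 ratio was 3.65 in the control (fold 11.1 to 28.5) and 1.31 in H2CKO (fold 2.17 to 3.06). The intervals of the members' levels overlapped between the libraries, whereas the Npr3/Nfatc1 cells of H2CKO stood above those of the control. An Igfbp3 UMI was found in 51 of 107 H2CKO members, but 4 of them held 131 of the 222 UMIs. Without those 4 the H2CKO members stood at 79.4 CPM (0.15, fold 0.881 to 1.42), so the H2CKO difference rests on 4 cells. In H2CKO the ratio fell under 2-fold when each cell was thinned to 5000 UMIs before the gate (0.72) and when cells were weighted equally (0.90).

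**Figure D4:**
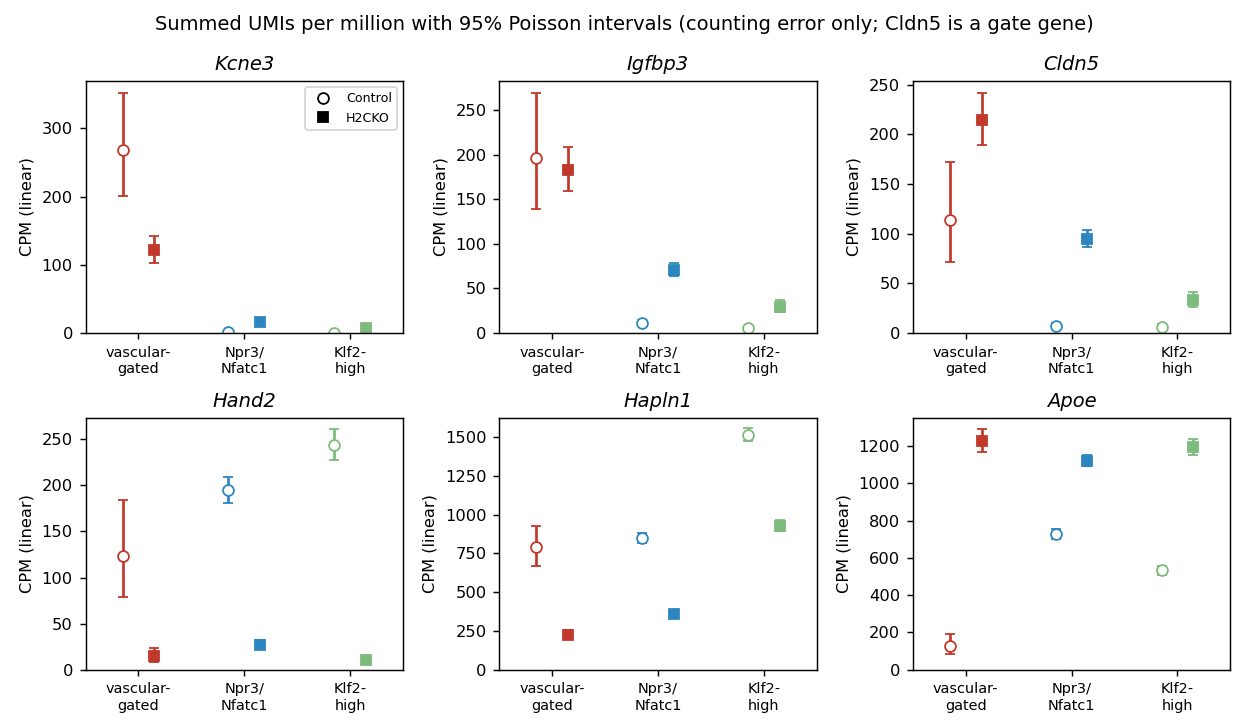
Level in CPM over summed UMIs (linear vertical axis, starting at 0) of 6 genes in the 3 endothelial groups, with control as open circles and H2CKO as filled squares, and bars for 95% Poisson intervals. Kcne3 and Igfbp3 are highest in the vascular-gated cells of both libraries, and Hand2 is lower in H2CKO in each group.

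The 16 H2CKO members with Kcne3 had other features in common. Their median depth was 14933.5 UMIs, against 9481 in the 91 members without it. Igfbp3 was present in 13 of the 16 and in 38 of the 91. Fabp4, a gene of the rule, was present in 10 and 10, and at least 2 vascular genes in 11 and 40. Dll4 was present in 10 and 32, and Nrp2, a receptor for semaphorins and VEGF known from veins, in 10 and 12. Apln, the secreted peptide of sprouting coronary endothelium, was found in 5 of the 16 and in none of the 91. In the other direction, Gja4, an arterial gap junction protein, was present in 1 of the 16 and 41 of the 91, and Vwf, the endothelial clotting factor, in 1 and 28. Endocardial genes were not absent from the 16: Hapln1 was present in 12 of them and 74 of the 91, and Hand2 in 3 and 6. Of the 16 cells, 7 had at least 6 GFP UMIs, and 40 of the 91 did. Kcne3 was not limited to the vascular-gated cells: 20 of 313 H2CKO Npr3/Nfatc1 cells had it, and 16 of those 20 carried at least 2 of the 3 vascular genes. In H2CKO Klf2-high cells 11 of 184 had it, and 3 of those 11 carried at least 2 vascular genes. The part of the greater depth in what these cells shared was not tested.

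The genes lower in the members than in Npr3/Nfatc1 cells in both libraries had varied roles, and Tmem108 and Postn were among them. Of the cushion list in the control, 3 of 13 were lower and 2 higher (Twist1 and Sox9). Of all genes there, 12.5% were lower and 0.916% higher. Wnt4, a secreted Wnt ligand, was at 20.7 CPM in control and 5.77 CPM in H2CKO members, and at 143 and 40.5 CPM in Npr3/Nfatc1 cells (log2 ratios -2.52 and -2.08). Tmem108, a membrane protein on the endocardial list, was at 56.8 and 14.0 CPM against 219 and 41.2 CPM (-1.86 and -1.28). Postn, the matrix protein periostin of cushion and valve, was at 67.1 and 15.7 CPM against 163 and 41.4 CPM (-1.22 and -1.17). Car4, a membrane carbonic anhydrase known from capillaries, was at 5.16 and 2.47 CPM against 67.1 and 22.0 CPM (-2.83 and -1.85), with 1 and 3 UMIs in the members. Mical2, an actin oxidase, had log2 ratios of -1.29 and -1.22, Stmn2, a microtubule regulator, of -1.08 and -1.28, and Ppp1r14c, a phosphatase inhibitor, of -1.13 and -1.82. Btrc, which marks proteins for breakdown, had 0 UMIs in the control members against 21.5 CPM, at least 1.39-fold lower, and stood at 8.24 against 25.2 CPM in H2CKO (-1.19). Over the 22 alternative settings run, Wnt4 and Car4 stayed past 2-fold in both libraries. The weakest log2 ratios of the others fell under 2-fold in at least 1 library, at -0.81 for Tmem108, -0.72 for Postn, -0.93 for Mical2, -0.11 for Stmn2 and -0.63 for Btrc, all in H2CKO, and Ppp1r14c reached -0.40 in the control and turned to 0.36 in H2CKO, from 3 and 2 UMIs.

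Some sarcomere and cardiomyocyte genes were also among the genes lower in both libraries. Of the cardiomyocyte list outside the rule, 2 of 7 were lower in the control (Tnni3 and Nppa), where 12.5% of all genes were. In H2CKO it was 5 of 7, beside 1.47%. Nppb, a natriuretic peptide, differed by -2.38 in the control and -1.72 in H2CKO, Tcap, which caps titin, by -2.73 and -1.39, Csrp3, a Z-disc protein, by -1.33 and -1.54, and Tnni3, cardiac troponin I, by -2.51 and -1.20. The sum over 12 cardiomyocyte genes was 6772 CPM in control and 2176 CPM in H2CKO members, and 8760 and 5974 CPM in Npr3/Nfatc1 cells. The deepest control cell held 85.4% of the control members' UMIs of these genes, and the other 9 stood at 1280 CPM. Per cell, the median was 1177 CPM in control and 1408 CPM in H2CKO members, and 1372 and 1418 CPM in Npr3/Nfatc1 cells. The highest cell stood at 25605 and 24397 CPM in members, and at 33077 and 31603 CPM in Npr3/Nfatc1 cells. In H2CKO the medians were thus close although the sums differed. The rule capped sarcomere genes in both groups alike, and all 12 genes were detected in both. Whether cardiomyocyte RNA in some Npr3/Nfatc1 cells contributed was not tested. In H2CKO none of these 4 differences held under every setting. With a sarcomere limit of 1% the log2 ratios were 0.11 for Csrp3, 0.14 for Tcap, -0.071 for Nppb and -0.10 for Tnni3. Without the cells of highest doublet score they were 0.25 for Csrp3, 0.12 for Tcap and 0.052 for Tnni3, and with thinning before the gate 0.072 for Tcap, 0.17 for Nppb and 0.20 for Tnni3. In the control, thinning gave 0.31 for Csrp3 and -0.072 for Tnni3. The positive values all had counting intervals that included equality.

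**Figure D5:**
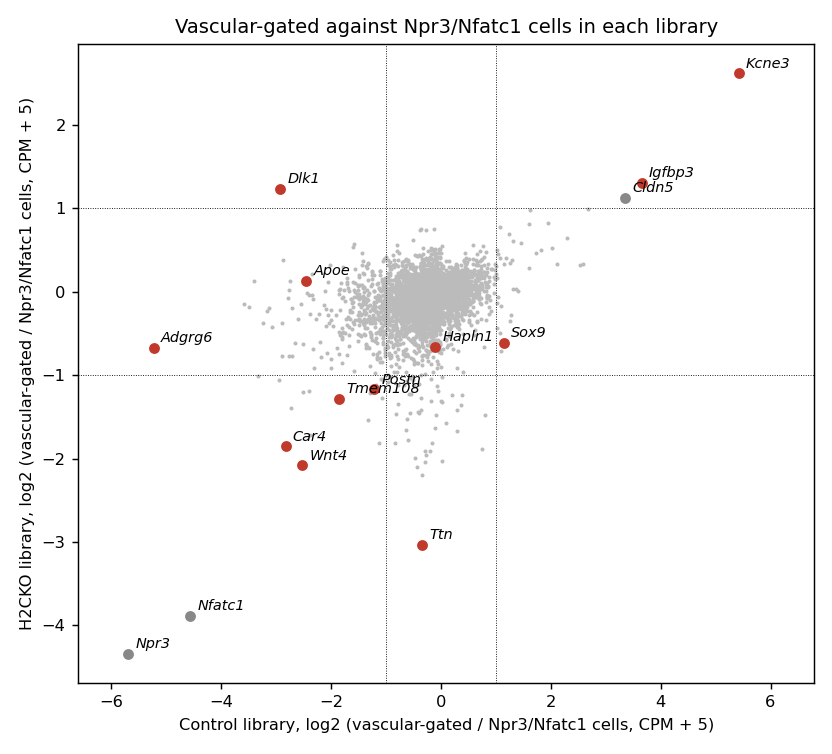
Log2 ratio of vascular-gated over Npr3/Nfatc1 cells on CPM plus 5 in the control (horizontal) and in H2CKO (vertical), 1 point per gene, with dotted lines at 2-fold, red for named genes and dark grey for genes of the rule. Kcne3 and Igfbp3 lie above 2-fold on both axes, and Dlk1 lies below on one and above on the other.

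By role, most endothelial genes were not past 2-fold between the members and the Npr3/Nfatc1 cells of H2CKO, the library with more members. Of 9 further pan-endothelial genes with enough counts, 0 were called in H2CKO (median log2 ratio -0.07), and 3 were lower in the control, namely Tek, Eng and Plvap, where 12.5% of all genes were lower. Plvap, the diaphragm protein of fenestrated endothelium, was at 403 CPM in H2CKO members and 440 CPM in Npr3/Nfatc1 cells, and at 144 and 344 CPM in the control. Endocardial genes leaned lower, with 2 of 11 lower in H2CKO (Tbx20 and Tmem108, median of the list -0.67) and 8 of 13 in the control. Among the arterial genes 0 of 9 were called in H2CKO and 2 of 8 were lower in the control, and with lists this short neither this count nor the pan-endothelial one is read as apart from the share of all genes. Without the 3 mesenchyme-rich control cells, 1420 of 4582 genes were lower in the control, with 12 of 13 endocardial, 3 of 8 arterial and 1 of 9 pan-endothelial genes. Dll4 was at 56.8 and 50.2 CPM in control and H2CKO members, against 9.08 and 38.3 CPM in Npr3/Nfatc1 cells. Sox18, a partner of Sox17 in vascular development, was at 98.1 and 154 CPM against 44.0 and 90.6 CPM, which is short of the 2-fold limit in H2CKO (0.73). In the control members 20 UMIs stand for 103 CPM, so neither Dll4 nor Sox18 could be called as higher there.

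The next lists were set beside shares of all genes in H2CKO of 0.19% higher and 1.47% lower, and 1 call in a short list is not read as apart from them. Of the venous list, 1 of 8 genes was higher in H2CKO, and this was Nrp2, at 28.0 CPM in members and 8.33 CPM in Npr3/Nfatc1 cells (1.31). Nr2f2, the transcription factor of venous identity, was at 204 and 166 CPM there. Of the capillary and sprouting list, 2 of 10 were higher in H2CKO, Kcne3 and Plaur, the urokinase receptor (45.3 against 18.2 CPM, 1.11), and Car4 was lower. Aplnr, the apelin receptor, was at 5.77 CPM in H2CKO members and 6.94 CPM in Npr3/Nfatc1 cells, within counting error of each other. Of the VEGF list, 1 of 8 was higher in H2CKO, again Nrp2. Kdr, the main VEGF receptor, was at 227 CPM in members and 238 CPM in Npr3/Nfatc1 cells, and Flt1 at 174 and 174 CPM. Of the fatty acid list, 1 of 3 was lower, namely Lpl, the lipoprotein lipase (17.3 against 41.6 CPM).

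Several lists had no called gene between the members and Npr3/Nfatc1 cells in H2CKO, where 1.66% of all genes were called, so no call in lists of 5 to 15 genes is near the background. These were 9 junction genes, 15 SoxF and ETS factor genes, 5 Notch genes, 10 flow response genes, 11 basement membrane genes, 11 S phase genes, 12 G2/M genes, 9 stress genes and 8 genes of glycolysis and hypoxia. Of the cushion list 3 of 9 were lower, Tgfb2, Postn and Tbx20. Of the insulin-like growth factor list, Igfbp3 was higher and Igfbp5 lower (128 against 286 CPM) of 9 genes tested. The lists with called genes on the higher side were therefore the venous, capillary, VEGF and growth factor lists, through Nrp2, Kcne3, Plaur and Igfbp3. Nrp2 was the 1 call of both the venous and VEGF lists. Igfbp3 was the 1 higher call of its list and fell to 0.15 without the 4 highest cells. Such single calls are not read as apart from the share of all genes.

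Against Klf2-high cells the distance was larger. In H2CKO 87 genes were higher (1.45%) and 345 lower (5.73%) of 6016, 7.18% in all. In the control 82 were higher (1.72%) and 785 lower (16.4%) of 4779, 18.1% in all, and 19 and 192 of 4217 went the same way in both (5%). Klf2 itself divides these groups by the rule. Of the flow response list 6 of 12 genes were lower in H2CKO and 9 of 11 in the control, with 0 higher. Klf4, a close relative of Klf2, was at 36.1 and 29.7 CPM in control and H2CKO members and at 609 and 380 CPM in Klf2-high cells (-3.90 and -3.48). Nos3, the endothelial nitric oxide synthase, was at 46.5 and 57.7 CPM against 168 and 140 CPM. Wnt9b, a flow-dependent Wnt ligand, had 0 UMIs in the members of both libraries and 86.8 and 63.2 CPM in Klf2-high cells.

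Immediate early and stress genes were also lower against Klf2-high cells, 8 of 11 in each library. Of all genes, 16.4% were lower in the control and 5.73% in H2CKO. Fos was at 176 and 91.4 CPM against 702 and 583 CPM. Hearts were kept on ice for hours before dissociation, and the part of that step in the stress genes was not tested. Genes of glycolysis and hypoxia went the other way, with 5 of 8 higher in H2CKO and 3 of 4 in the control. Of all genes, 1.45% and 1.72% were higher. Pgk1, a glycolytic enzyme, was at 563 and 608 CPM in members against 264 and 294 CPM (1.08 and 1.03), and Slc2a1, the glucose transporter, at 92.9 and 51.1 CPM against 31.3 and 16.8 CPM. Slc2a1 was called in H2CKO only, since 20 UMIs stand for 103 CPM in the control members. Vegfa, the growth factor ligand, was lower in both, at 25.8 and 6.59 CPM against 69.8 and 32.8 CPM.

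Between the libraries, 287 genes were higher (8.46%) and 212 lower (6.25%) in H2CKO members of 3392, 14.7% in all, with a median log2 ratio of 0.17. For comparison, 545 of 6680 genes were called in Npr3/Nfatc1 cells (8.16%), 354 of 6633 in Klf2-high cells (5.34%) and 63 of 5683 in cardiomyocyte-gated cells (1.11%). The members' 499 calls shared 100 genes in the same direction with the Npr3/Nfatc1 cells and 23 with the cardiomyocyte-gated cells. With 10 control cells, 20 UMIs stand for 103 CPM, so that genes below that level could be called only as higher in H2CKO. With the counting interval also required to exclude equality, 148 higher and 212 lower genes remained called, and after subtracting the median ratio the split was 219 higher to 300 lower.

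The higher genes included several that Npr3/Nfatc1 cells carried in both libraries. Apoe, the lipid carrier apolipoprotein, was at 129 CPM in control and 1228 CPM in H2CKO members (3.20, fold 6.42 to 14.8), and at 729 and 1121 CPM in Npr3/Nfatc1 cells. It was found in 7 of 10 control and 104 of 107 H2CKO members. Cavin2, a coat protein of caveolae, was at 46.5 and 409 CPM (3.01, fold 4.60 to 19.4), against 376 and 531 CPM. Both were thus low in the control members and not in the control Npr3/Nfatc1 cells. Adgrg6, an adhesion G protein-coupled receptor of the endocardial list, had 0 UMIs in the control members and 48.6 CPM in H2CKO, at least 3.14-fold higher. In Npr3/Nfatc1 cells it went the other way, from 182 to 80.3 CPM. Gja4 had 1 UMI in the control members and stood at 80.7 CPM in H2CKO (fold 2.74 to 624). Lbp, which binds lipopolysaccharide, had 0 UMIs in the control and 45.3 CPM in H2CKO, at least 2.93-fold higher. The other called genes with 0 UMIs in the control members among the 10 highest ratios were Mitd1, Amdhd2, Sympk, Oit3 and Dmxl1, at 32.9 to 39.5 CPM in H2CKO and at least 2.13-fold to 2.55-fold higher. Amdhd2 fell to a log2 ratio of 0.32 with cells thinned before the gate.

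Without the 3 control cells highest in mesenchyme genes, Apoe remained higher by 2.81, Cavin2 by 4.11 and Gja4 by 2.57 in log2 ratio. By list, 3 of 8 pan-endothelial genes outside the rule were higher in H2CKO and 0 lower with all 10 control cells, beside 8.46% and 6.25% of all genes. Without the 3 cells it was 3 of 9 (Tek, Clec14a and Plvap), beside 18.8% of all genes. With all 10 they were Clec14a, an endothelial lectin (6 UMIs in the control and 243 CPM in H2CKO), Plvap, and the adhesion molecule Icam2 (217 and 502 CPM). Of 7 arterial genes 2 were higher, Gja4 and Bmx, and of the capillary list Plvap was higher and Esm1 and Kcne3 lower. Esm1, a tip cell marker, was at 114 CPM in the control and 3.29 CPM in H2CKO, but 95.5% of its control UMIs came from 1 cell.

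The lower genes rested largely on few control cells. Sox9 was at 263 CPM in the control and, from 14 UMIs in all, at a log2 ratio of -4.02 in H2CKO, Twist1 at 372 and 30.5 CPM and Vcan at 960 and 69.2 CPM, nearly all from control cells 1, 3 and 4. Tbx20, a transcription factor of endocardium and heart muscle, was at 258 and 8.24 CPM, with 52% of its control UMIs from 1 cell, and Slc8a1, the sodium-calcium exchanger, at 124 and 10.7 CPM, with 79.2% from 1 cell. Cthrc1, a collagen-related secreted protein, was at 129 and 9.88 CPM. Its control UMIs were 10, 9 and 2 in cells 1, 3 and 4, and 3 and 1 in cells 6 and 8. Without the 3 cells Tbx20 stood at a log2 ratio of -1.70, from 2, 1 and 1 UMIs in control cells 6, 8 and 10, and was not called. The control then kept 0 UMIs of Sox9, 1 of Twist1 and 5 of Vcan. The limit for Sox9 in those 7 control cells was 28.4 CPM, above the level in H2CKO, and the intervals of the H2CKO over control fold, 0.543 to 130 for Twist1 and 0.602 to 4.62 for Vcan, included equality, so no direction is shown for these 3 genes without those cells. The sum over 12 mesenchyme genes was 2204 CPM in control members, with 0, 147 and 6390 CPM as the lowest, median and highest cell. In H2CKO members it was 303 CPM, with 0, 116 and 2964 CPM. The medians were thus close and the difference in the sums came from the upper cells. Of the mesenchyme list, 5 of 5 genes were lower in H2CKO with all control cells, beside 6.25% of all genes. Without the 3 cells 4 of 5 were higher (Col1a2, Col3a1, Twist1 and Fbln2), beside 18.8% of all genes. Such calls did not require the interval to exclude equality. Dcn was the only gene of that list at 0 in the control members. Ttn was at 1151 and 45.3 CPM, and 94.6% of its control UMIs came from cell 1. Without that cell, 409 genes were higher and 169 lower. Without the 3 mesenchyme-rich cells 579 were higher and 76 lower, and 203 and 35 of the original calls remained.

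Hand2 and Hapln1 were touched by the same cells. Without the 3 mesenchyme-rich control cells the log2 ratio of H2CKO over control was -1.64 for Hand2 and -0.51 for Hapln1, in place of -2.70 and -1.79 with all 10. The 6 Hand2 UMIs left in the control were all in cell 8, under the 20 needed for a call. When at least 2 vascular genes were required, no control member had a Hand2 UMI, which allows up to 32.0 CPM there, and H2CKO members stood at 20.5 CPM, so no direction is shown. The same held with cells thinned to 5000 UMIs before the gate, with 0 UMIs in the control and 3 in H2CKO. Gm10260, an uncharacterised gene, was at 408 CPM in the control and 1.65 CPM in H2CKO (-5.96), and the difference was as large in Npr3/Nfatc1 cells (-5.99) and in cardiomyocyte-gated cells (-6.10). It thus differed alike in each of these groups of cells. Of 7 genes of the insulin-like growth factor list 4 were lower in H2CKO, where 6.25% of all genes were, with Igf1 at 284 and 91.4 CPM, Igf2 at 1342 and 619 CPM, Igf2r at 454 and 99.7 CPM and Igfbp5 at 294 and 128 CPM. Of 11 G2/M genes 2 were lower, Mki67 (305 and 80.7 CPM) and Top2a (594 and 233 CPM), and of 8 S phase genes none. Without the 3 mesenchyme-rich control cells these counts were 1 of 6 (Igfbp5), 0 of 6 and 0 of 7, so 3 of the 4 growth factor calls and both G2/M calls were not made without those cells.

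Within the H2CKO members, none of the calls named here between cells with and without GFP held both without the highest cell and at a higher GFP limit. Of the 58 cells with a GFP UMI 11 had only 1 or 2, and in the control, which had no Cre, 23.6% of cardiomyocyte-gated cells had at least 1, so the split at 1 UMI counts some background as GFP. Of 4219 genes 67 were higher and 14 lower in the 58 cells than in the 49 without (1.92%), and with 47 cells of at least 6 UMIs set beside 60 of 0 to 2, a split chosen after seeing the data, 53 were higher and 33 lower of 4257 (2.02%). Igfbp3 was at 250 CPM with a GFP UMI and 91.6 CPM without (log2 ratio 1.40), but 131 of its 175 UMIs came from 4 cells, and at the higher limit it was at 207 and 161 CPM (0.35, fold 0.981 to 1.69). Sfrp1, a secreted Wnt inhibitor, was at 49.9 and 7.80 CPM, and called at the higher limit too (54.5 and 12.4 CPM), but 21 of its 39 UMIs came from 1 cell, without which the intervals of both ratios included equality. Sparcl1, a matrix protein, was at 31.4 and 1.95 CPM in 12 and 1 cells, and at the higher limit, with 17 and 6 UMIs, it was under the count needed for a call, while the log2 ratio was 1.29 (fold 1.21 to 9.96). Without its highest cell it also missed that count, at 18 UMIs and a log2 ratio of 2.16 (fold 2.12 to 559). Twist1 was at 15.7 and 50.7 CPM, and at the higher limit at 19.3 and 40.3 CPM, which was not called. Dlk1, a Notch-related membrane protein, was at 14.3 and 91.6 CPM, and without the 1 cell that held 71.9% of its UMIs it had 10 and 6 UMIs (log2 ratio 0.18). Hand2 was at 15.7 CPM with a GFP UMI and 13.6 CPM without, within counting error of each other. Cells with a GFP UMI were deeper, at a median of 11023.5 UMIs against 9207, and the part of depth in these differences was not tested.

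The 20 H2CKO members with Fabp4 were set beside the 87 without it, a split by a gene of the rule that was chosen after values had been seen and is given as a description. They were deeper, at a median of 14988 UMIs against 9446, and 10 of 20 had a GFP UMI, against 48 of 87. Of 4056 genes 97 were higher and 254 lower (8.65%), and 69 and 293 of 3885 without the deepest H2CKO cell. Kcne3 was at 271 CPM with Fabp4 and 65.5 CPM without, in 10 and 6 cells. Nts, the peptide neurotensin, was at 119 and 19.2 CPM in 10 and 13 cells. Other genes on the higher side were Nrp2 (64.0 and 14.7 CPM), the lactate transporter Slc16a3 (94.4 and 16.9 CPM), the glycolytic enzyme Pfkl (128 and 33.9 CPM) and the G protein subunit Gng2 (107 and 21.5 CPM).

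Lower in the cells with Fabp4 were Gja4 (12.2 and 106 CPM), Vwf (6.09 and 38.4 CPM), the matrix proteoglycan Bgn (21.3 and 120 CPM) and Cdkn1c, a cell cycle inhibitor (950 and 3999 CPM, -2.07). Cdkn1c was also the gene of these with the highest level, at 1053 CPM in control members and 3174 CPM in H2CKO members, and 6039 and 4911 CPM in Npr3/Nfatc1 cells. Some smooth muscle and sarcomere genes were also higher in the Fabp4 group. The deepest H2CKO cell held 62 UMIs of Acta2, 36 of Ttn, 307 of Myl7 and 15 of Upk3b, a gene of the epicardial list, and no Pecam1 or Kcne3. Without it the log2 ratios were -0.03 for Acta2, 0.01 for the myosin light chain Myl9 and -0.57 for Ttn. Tagln, an actin-binding protein of smooth muscle, stayed higher without it, at 196 and 30.5 CPM, in 7 of 19 and 19 of 87 cells.

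Markers of white blood cells and platelets were scarce in the members. The 10 white blood cell genes summed to 5.16 CPM in the control, from 1 UMI, and 12.4 CPM in H2CKO, with Ptprc at 0 in both. The 6 platelet genes had 2 UMIs in the control and 14 in H2CKO. The 10 epicardial genes summed to 46.5 and 71.7 CPM, with UMIs in 5 control and 20 H2CKO members. In the highest H2CKO cell they stood at 1179 CPM. Erythroid genes summed to 4558 CPM in control members, with a range over cells from 1897 to 12877, and to 6094 CPM in H2CKO members, from 2546 to 16718, so that erythroid RNA was counted in every member. Mural genes summed to 686 and 275 CPM, with Myh11 at 0 in both, and lymphatic genes to 114 and 138 CPM. Their part in the differences above was not tested.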

How the data were processed

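Single-cell RNA was measured in 1 control and 1 H2CKO library of whole hearts. The submitters' processing notes name Cell Ranger 5.0.1, Seurat 4 and the build GRCm38.p6, without roles. The deposited matrices hold raw UMI counts per gene and barcode, including GFP and Tomato, and the deposited embedding holds 2 coordinates per cell, a score without a unit. The authors' filters on embedding cells are not given in the sources used here. Gene positions came from GENCODE vM21, which matched 22287 of 22401 features.

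The members and the gene lists were chosen with earlier results of these data known. UMI counts were summed per group and library and divided by the group's total (CPM). Ratios used CPM plus 5, and a gene was called past 2-fold with at least 20 CPM and 20 UMIs in the higher group. No test was possible with 1 library per genotype. Intervals are exact (Poisson, conditional binomial, Clopper-Pearson; 95%) and cover counting error only. No barcodes were removed as doublets in the main analysis; Scrublet scores (scanpy 1.11.5) were used in an alternative. Thinning drew 5000 UMIs per cell. The ratios and calls were tested on simulated data. Named genes were the markers, reporters and gate genes, the highest and lowest ratios among called genes in each comparison (10, 12 or 6 a side), and from each of 30 lists the called genes and up to 4 of highest level. Other genes named in the text, such as those of the Fabp4 split and of single cells, were chosen after their values were seen. Scripts used Python 3.11.15, numpy 2.4.6, scipy 1.17.1, scikit-learn 1.9.0 and matplotlib 3.10.9. Alternatives changed the gate, depth, doublets, filter, scaling and cells used.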

Additional observations from a re-analysis of the deposited data

Results flagged for a closer look

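Dlk1, a membrane protein related to Notch ligands, differed in opposite directions between the libraries. The log2 ratio of vascular-gated over Npr3/Nfatc1 cells was -2.92 in the control, from 2 UMIs in 1 member (10.3 against 111 CPM), and 1.24 in H2CKO, from 57 UMIs in 8 members (46.9 against 17.1 CPM). Of those 57 UMIs, 41 came from 1 cell, and without it the H2CKO members stood at 13.3 CPM (-0.27), so the opposite direction rests on that cell. It was the only gene called in opposite directions in these 2 comparisons. The difference between the libraries was not tested.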

How the results depend on the processing

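No paired analysis was possible because each genotype had 1 library, and for the same reason no replicate could be left out. The 117 cells (10 control, 107 H2CKO) became 57 when at least 2 of the 3 vascular genes were required, and 57 or 70 when H2CKO cells with at least 6 or at most 2 GFP UMIs were kept. The 499 genes past 2-fold between libraries became 829 with cells thinned before the gate, 261 with a filter of 100 CPM and 2570 with no filter. Of the calls, 57.5% were higher as reported, 42.2% with ratios centred on the median gene, 18.8% with the 100 CPM filter and 97.8% with thinning. The 22 genes past 2-fold against Npr3/Nfatc1 cells in both libraries became 58 with Klf2 under 500, 90 with at least 2 vascular genes, 6 with 100 CPM, 58 with no filter, 211 against Klf2-high cells, 630 in the control alone and 96 in H2CKO alone. They became 69 without the deepest control cell, 76 without the 3 control cells highest in mesenchyme genes, 87 without the members lying among other cells, and 34 with H2CKO cells of at most 2 GFP UMIs. The settings on single control cells, cells highest in a gene, members among other cells and GFP were chosen after seeing the data. The cause of each change was not tested.

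Of 1298 gene values recomputed for 59 gene results, 1105 stayed within the counting interval of the reported ratio. Of called values, 21 changed sign, and in all 21 the interval of the new ratio included equality, so none shows a reversal, and 4 values that had not been called changed sign (Tmem108 between libraries, Hapln1 against Npr3/Nfatc1 cells in the control). Between libraries the 21 were Hand2 (2.35 with at least 2 vascular genes, 1.02 with thinning), Sox9 (0.91, 0.75, and 1.73 without the mesenchyme-rich cells), Twist1 (0.53 with at least 2 vascular genes, 1.29 without the mesenchyme-rich cells), Vcan (1.84, 0.093 and 0.50 in the order given for Sox9) and Ttn (0.13 with thinning). For Hand2 and Sox9 the control then held 0 UMIs, for Twist1 1, and for Vcan 1, 1 and 5. Against Npr3/Nfatc1 cells, thinning gave 0.31 for Csrp3 in the control and, in H2CKO, 0.17 for Nppb, 0.36 for Ppp1r14c, 0.072 for Tcap and 0.20 for Tnni3. A sarcomere limit of 1% gave 0.11 for Csrp3 and 0.14 for Tcap, and leaving out the highest doublet scores gave 0.25, 0.12 and, for Tnni3, 0.052, all in H2CKO. Over these settings Kcne3 stayed past 2-fold (5.12 to 6.83 in the control, 2.06 to 2.97 in H2CKO), and Igfbp3 did in the control (3.49 to 4.68) but not always in H2CKO (0.72 to 1.65). Without the 4 H2CKO members highest in each gene, the H2CKO values were 1.46 for Kcne3 and 0.15 for Igfbp3. With 10 control members, 20 UMIs stand for 103 CPM.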
